A study of Mus musculus with 18 samples.

Results

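A set of 9 genes of the neurons that lie inward of the photoreceptors were followed in RNA of the retinal pigment epithelium (RPE) of *rd1* mice: *Grm6*, *Pcp2* and *Prkca* of bipolar cells, *Gad1*, *Slc32a1* and *Calb2* of amacrine cells, *Lhx1* of horizontal cells, and *Thy1* and *Nefl* of ganglion cells. They are 9 of 47729 genes in the count table, and were taken by name as marker genes of these cell classes. The RPE does not belong to any of these classes, so the genes were taken as a measure of inner retina RNA in an eyecup sample. There were 18 libraries from 9 *rd1* mice at P40, 1 for each eye. The eye called Best1-Nrf2 had been given an adeno-associated virus (AAV) that drives human *Nrf2* cDNA from the human Best1 promoter, which is active in the RPE, and it also received AAV-Best1-GFP; the eye called control received the AAV-Best1-GFP vector by itself. All mice therefore carried the *rd1* mutation of *Pde6b*, which kills rods early in life, and all eyes were injected and expressed GFP; no uninjected and no wild-type eye is among these libraries. The study's methods give the *rd1* strain as FVB/N.

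In a normal retina, photoreceptors release glutamate onto bipolar cells, which pass the signal to ganglion cells, the neurons whose axons form the optic nerve. Horizontal cells shape the signal at the photoreceptor synapse, and amacrine cells do so at the inner synapses, mostly with GABA or glycine. In *rd1* retinas the rods go first and the cones follow, while the inner neurons survive for much longer. To isolate the RPE the retina was peeled off, the eyecup was cleaned, and poly(A) RNA was taken from the supernatant and amplified, so RNA of retina that stayed attached to the eyecup can be read in the same library.

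The libraries held from 18956748 to 49598700 counts, with a median of 35278998 in control and 38914241 in Best1-Nrf2 eyes, and a difference between eyes was not shown (two-sided exact sign-flip permutation test over 9 mice, p = 0.15). All 12 of the RPE genes checked were among the genes tested, and their summed level was 11155 to 63231 CPM (counts scaled to library size) in control and 13454 to 66709 CPM in Best1-Nrf2 eyes. These sums overlap, but 5 of the 12 RPE genes were called lower and 0 higher, with a median change of -0.58. Of all genes tested 1.13% were called lower. DESeq2 called 1 of the 12 higher and limma voom 2. *Rpe65*, the visual cycle isomerase, averaged 2021 ± 846 CPM in control and 297 ± 177 CPM in treated eyes (SD, n = 9), with a log2 change of -2.81 (edgeR adjusted p = 0.00024). The medians of *Tyr*, *Best1* and *Ttr* were higher in treated eyes. For *Tyr* they were 29.8 and 49.2 and for *Best1* 0.507 and 1.03 CPM per kilobase of exon. Of 7 macrophage genes 3 were called higher, with a median change of 1.08, and of 6 fibroblast genes 1 was, beside 3.12% of all genes tested. The part of these shifts in the results below was not tested. The targeted gene, *Nfe2l2*, averaged 89.7 ± 17.8 CPM without and 453 ± 147 CPM with the vector (SD, n = 9), and was higher in 9 of 9 treated eyes; this is the mouse gene, whereas the vector carries the human cDNA, and whether reads of the human cDNA enter this count was not tested. Against these RPE levels the 9 inner retina genes together came to 16.5 to 184 CPM in control eyes, with a median of 37.8 CPM. In Best1-Nrf2 eyes they came to 21.3 to 1229 CPM, with a median of 30.2 CPM. *Prkca*, a kinase of many other cells as well, weighs heavily in many of these sums. It gave 40.2 of 43.5 CPM in the Best1-Nrf2 eye of mouse 9. In the control eye of mouse 1 it gave 13.5 of 18.5 CPM, but in the Best1-Nrf2 eye of mouse 6 only 80.5 of 1229 CPM. The median of *Prkca* alone was 23.1 CPM with and 11.1 CPM without the Nrf2 vector. The median sums therefore do not give the level of the other genes, or their gap between groups. In bulk RNA, fewer cells of a type and less RNA per cell cannot be told apart.

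The 2 libraries with the highest mean of the 9 genes were Best1-Nrf2 eyes, of mouse 6 (5.46 log2 CPM) and mouse 2 (3.69). The eye of mouse 2 was nearer to the third library, the control eye of mouse 7 (2.85), than to mouse 6. In mouse 6 the Best1-Nrf2 eye ranked first of all 18 libraries for 9 of 9 genes, with a sum of 1229 CPM. The Best1-Nrf2 eye of mouse 2 came second for 7 of 9 genes, with a sum of 300.4 CPM. Next came the control eyes of mouse 7 at 184 CPM, mouse 9 at 99.8 CPM and mouse 8 at 79.6 CPM. The changes of the 9 genes, their correlations with each other and the counts of further inner retina and photoreceptor genes are given with and without mice 2 and 6; other values are for all 9 mice.

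The promoters of the genes were read for the core of the antioxidant response element, the site bound by Nrf2 (TGACNNNGC), and for the core bound by the retinal factors CRX and OTX2 (TAATCC), on both strands. RefSeq windows of 300 bases (GRCm38.p6, C57BL/6J) were at hand for 6 of the 9 genes: *Grm6*, *Pcp2*, *Prkca*, *Gad1*, *Slc32a1* and *Lhx1*. These genes have 9 windows, 4 of them of *Pcp2*. The antioxidant core was in 2 of the 9, those of *Grm6* and *Lhx1*, in 21.6% of 37 windows of further inner retina genes and in 12.4% of all 32851 windows. The CRX/OTX core was in 1 of the 9, that of *Gad1*, in 10.8% of those 37 windows and in 7.06% of all windows. The 2 stretches before a start that hold a match are shown because *Grm6* and *Gad1* varied together with the other genes below, and because the treatment is a transcription factor; capitals mark the match. The *Grm6* stretch is chr11:50850435-50850684 on the plus strand, and its match, GCTGGGTCA, is the reverse complement and begins 59 bases before the gene's start. The *Gad1* stretch is chr2:70561879-70562128 on the plus strand, and lies before a RefSeq start that is inside the *Gad1* gene as GENCODE annotates it. Its match, also on the reverse strand, begins 203 bases before that RefSeq start.
Grm6: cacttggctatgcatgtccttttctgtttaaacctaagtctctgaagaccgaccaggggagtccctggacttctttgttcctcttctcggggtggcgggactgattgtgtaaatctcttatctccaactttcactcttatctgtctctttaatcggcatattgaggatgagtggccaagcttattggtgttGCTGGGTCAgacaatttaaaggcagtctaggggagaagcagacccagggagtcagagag
Gad1: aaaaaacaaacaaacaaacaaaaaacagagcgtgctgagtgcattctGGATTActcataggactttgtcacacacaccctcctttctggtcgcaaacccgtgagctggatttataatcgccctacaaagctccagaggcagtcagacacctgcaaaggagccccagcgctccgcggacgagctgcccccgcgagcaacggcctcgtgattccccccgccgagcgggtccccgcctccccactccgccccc
In *Lhx1* the match, TGACCGAGC, begins 15 bases after the start base, within the transcript. These matches are letters in a window and no evidence of binding.

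With the 9 pairs of eyes, none of the inner retina genes differed between Best1-Nrf2 and control eyes past the threshold. Of the 9 genes, 6 passed the count filter, and 0 of these 6 reached an adjusted p of 0.05 (edgeR quasi-likelihood F test with mouse as a block), against 806 of 18958 genes tested, or 4.25% (1.13% lower and 3.12% higher). At an unadjusted p under 0.05 there was 1 gene, *Prkca*, beside 12.8% of all genes, and DESeq2 and limma voom also called 0 of them, where they called 7.8% and 7.52% of all genes. The fitted change, Best1-Nrf2 over control, was negative for 4 genes and positive for 2, with a median of -0.42 on the log2 scale beside -0.03 over all genes tested. Their intervals were several log2 units wide except for *Prkca*, so sizable changes in either direction are compatible with them.

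**Figure D1:**
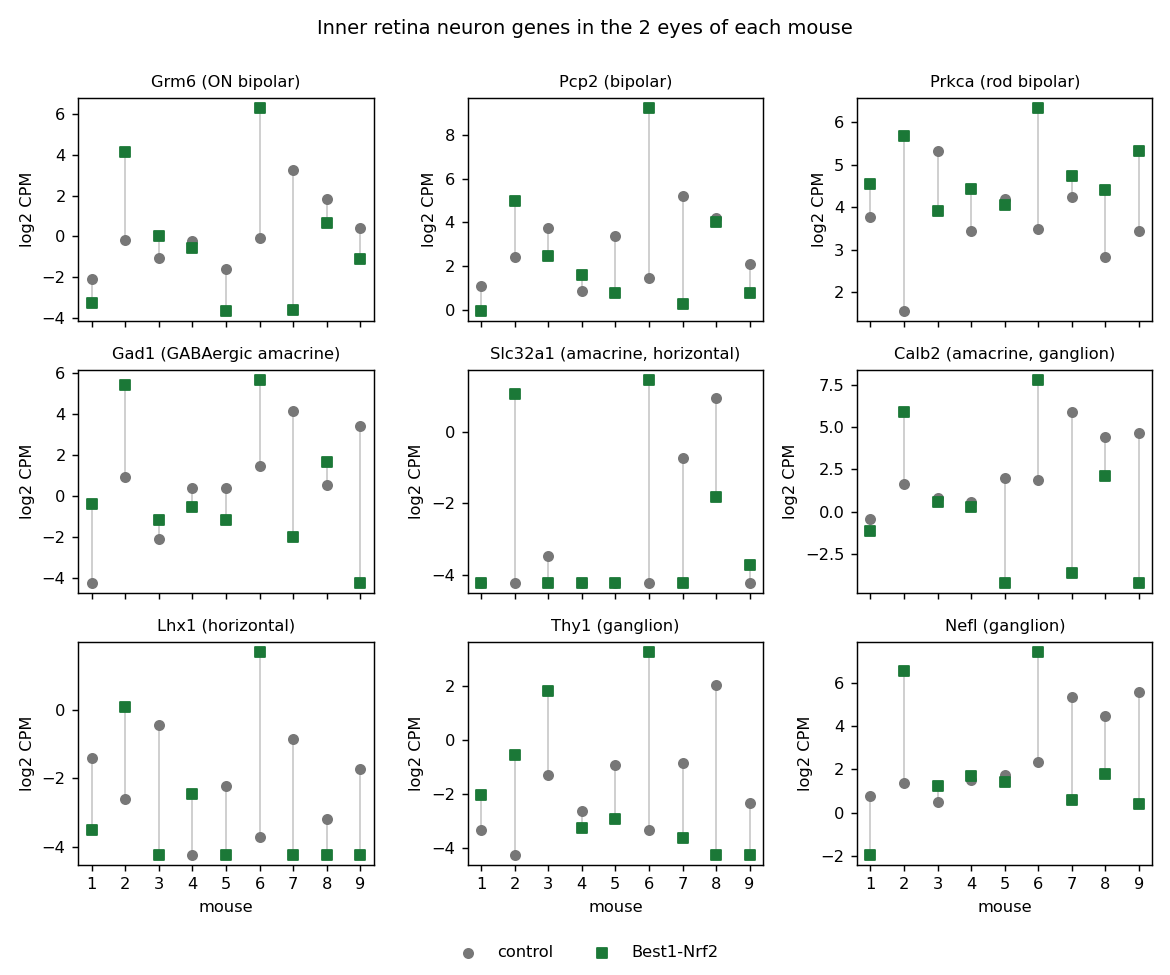
Level of each of the 9 genes in the 2 eyes of each mouse; the x axis is the mouse number and the y axis log2 CPM with a prior count of 2, gray circles are control eyes, green squares Best1-Nrf2 eyes, and lines join eyes of a mouse. The Best1-Nrf2 eye of mouse 6 is the highest point in all 9 panels, and the lowest row of points in *Slc32a1* holds libraries with 0 counts.

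Among the bipolar genes, *Grm6* encodes the glutamate receptor mGluR6 of ON bipolar dendrites (chromosome 11, 50850685 to 50866208, plus strand; GRCm38). Its lowest, median and highest levels were 0.186, 0.834 and 9.49 CPM in control and 0.0259, 0.618 and 78.8 CPM in Best1-Nrf2 eyes. The groups overlapped, and the next highest level after mouse 6 was the 17.5 CPM of the Best1-Nrf2 eye of mouse 2. The fitted change was -0.36 (SE 1.20, 95% interval -2.98 to 2.25, adjusted p = 0.96), with lower levels in 6 of 9 Best1-Nrf2 eyes.

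*Pcp2*, a regulator of G protein signaling that marks bipolar cells in the retina, lies on the minus strand of chromosome 8 at 3623371 to 3625545. It ranged from 1.75 to 36.9 CPM with a median of 5.26 CPM in control eyes, and from 0.904 to 608 CPM with a median of 2.94 CPM in Best1-Nrf2 eyes. The 608 CPM of mouse 6 was 19 times the 32.0 CPM of mouse 2, and it drew the Best1-Nrf2 mean to 74.4 ± 200.4 CPM (SD, n = 9) over 10.5 ± 11.4 CPM in control eyes, opposite to the order of the medians. The paired change was -0.48 (SE 1.00, interval -2.67 to 1.71, adjusted p = 0.93), again lower in 6 of 9 mice.

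*Prkca* encodes protein kinase C alpha, the usual stain for rod bipolar cells and a kinase of many other cells as well (chromosome 11, 107933387 to 108343928, minus strand). Levels ran from 2.89 to 39.8 CPM with a median of 11.1 CPM in control eyes and from 15 to 80.5 CPM with a median of 23.1 CPM in Best1-Nrf2 eyes. It was higher in 7 of 9 Best1-Nrf2 eyes, the exceptions being mice 3 and 5, and the groups still overlapped. The change of 1.22 (SE 0.49, interval 0.15 to 2.28) had an unadjusted p of 0.028 and an adjusted p of 0.28, and without mice 2 and 6 it was 0.69 (interval -0.11 to 1.49, adjusted p = 0.40). DESeq2 gave an adjusted p of 0.052 at 1.22, and leaving out 1 mouse gave 0.90 to 1.56, the highest without mouse 3 (adjusted p = 0.098).

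Of the amacrine genes, *Gad1*, which makes GABA from glutamate, lies on chromosome 2 at 70553072 to 70602014, plus strand. It was at 0 counts in 1 library of each group, with a median of 1.37 CPM in control eyes and of 0.644 CPM in Best1-Nrf2 eyes, and its highest levels were 17.7 CPM in the control eye of mouse 7 and 49.9 CPM in the Best1-Nrf2 eye of mouse 6. The Best1-Nrf2 eye of mouse 2, at 42.2 CPM, was close behind. Its change was 0.39 (SE 1.56, interval -3.01 to 3.78, adjusted p = 0.97), and the sign turned without mouse 1, 2 or 6, with -1.04 without both 2 and 6.

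*Calb2* encodes calretinin, a calcium-binding protein of amacrine and ganglion cells (chromosome 8, 110137502 to 110168210, minus strand). Control eyes ran from 0.696 to 59.0 CPM with a median of 3.53 CPM, and Best1-Nrf2 eyes from 0, in mice 5 and 9, to 225 CPM with a median of 1.13 CPM. Levels were lower in 7 of 9 Best1-Nrf2 eyes, with mice 2 and 6 as the exceptions, and the fitted change was -1.66 (SE 1.78, interval -5.53 to 2.21, adjusted p = 0.82). Leaving out 1 mouse gave -2.46 (mouse 6) to -0.89 (mouse 7).

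*Nefl*, the light neurofilament subunit of large axons, lies on chromosome 14 at 68083863 to 68089095, plus strand. It was detected in all 18 libraries, at 1.35 to 47.4 CPM with a median of 3.34 CPM in control and 0.209 to 171 CPM with a median of 2.62 CPM in Best1-Nrf2 eyes. Mice 2, 3, 4 and 6 had more of it in the Best1-Nrf2 eye and the other 5 had less. The change was -0.82 (SE 1.27, interval -3.59 to 1.95, adjusted p = 0.89), and -1.46 (mouse 6) to -0.19 (mouse 9) when 1 mouse was left out.

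The remaining 3 genes were too low for the test. *Slc32a1*, the vesicular GABA and glycine transporter (chromosome 2, 158610767 to 158615748, plus strand), was at 0 counts in 11 of 18 libraries and at or below the floor of 3 counts in 13, and its highest level was 2.70 CPM. *Lhx1*, a transcription factor of horizontal cells (chromosome 11, 84518284 to 84525535, minus strand), was at 0 in 6 libraries, 1 control and 5 Best1-Nrf2, with a highest level of 3.16 CPM. *Thy1*, a surface protein of ganglion cells (chromosome 9, 44043384 to 44048579, plus strand), was at 0 in 3 libraries and at or below the floor in 8, and ranged up to 3.99 CPM in control eyes and up to 9.48 CPM in Best1-Nrf2 eyes. With no count filter the change of *Slc32a1* was 0.69 (interval -3.86 to 5.24, adjusted p = 0.97), that of *Lhx1* -1.65 (-4.91 to 1.62, adjusted p = 0.92) and that of *Thy1* -0.04 (-2.30 to 2.22, adjusted p = 0.999).

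Per kilobase of exon, the median levels over the 18 libraries put *Pcp2* first at 2.57 CPM per kb, then *Prkca* at 2.05, *Calb2* at 1.36, *Nefl* at 0.889, *Gad1* at 0.163, *Grm6* at 0.151, *Thy1* at 0.0424 and *Lhx1* at 0.0207, with *Slc32a1* at 0. For the 7 pairs of neighbors in this order with medians above 0, the gap was 0.11 to 2.44 on the log2 scale, and in 0 of the 7 was it larger than the SD of the more variable gene between eyes of a group. Within a library, *Nefl* was above *Gad1* per kilobase in 17 of 18 libraries; in the other 6 pairs the gene named first was above its neighbor in 9 to 12 of 18.

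Mice 2 and 6 had the largest positive differences between eyes and were left out after their levels had been seen, so that the fits without them moved toward lower levels follows from that choice and supports no direction. Over the remaining 7 pairs the median change of the 6 genes was -1.48, and 0 of them were called, beside 4.97% of all genes. Changes were -1.38 for *Pcp2* (interval -2.67 to -0.08, adjusted p = 0.28), -2.06 for *Nefl* (-3.91 to -0.21, adjusted p = 0.25), -3.31 for *Calb2* (-6.63 to 0.0041, adjusted p = 0.32), -1.58 for *Grm6* (adjusted p = 0.43) and -1.04 for *Gad1* (adjusted p = 0.83). At an unadjusted p under 0.05 there were 2, *Pcp2* and *Nefl*, beside 15.8% of all genes. The fit without the mouse block, over all 9 pairs, gave positive changes for *Grm6* (2.50), *Pcp2* (2.83), *Calb2* (1.28) and *Nefl* (1.14), none of them called.

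**Figure D2:**
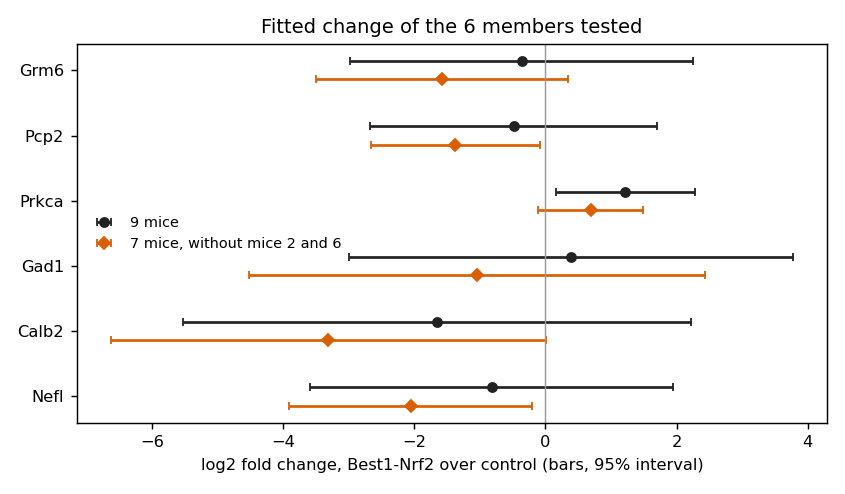
Fitted change of the 6 genes tested, as log2 fold change of Best1-Nrf2 over control on the x axis; points are estimates from edgeR with mouse as a block and bars 95% intervals, black for 9 mice and orange for 7 mice without mice 2 and 6. With 9 mice the interval of *Prkca* alone lies above 0, and with 7 mice those of *Pcp2* and *Nefl* lie below it.

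Most of the genes varied together from library to library. Between eyes of the same group the SD of log2 CPM was 1.81 to 3.41 for 8 of the genes, at the 96.5th to 99.9th percentile of genes tested. It was 0.92 for *Prkca*, at the 67.3rd, beside a median of 0.73 over all genes tested. Of the 8, *Slc32a1*, *Lhx1* and *Thy1* did not themselves pass the count filter. The percentiles compare genes of all levels, and the part of low counts in these spreads was not tested. With each gene's group mean taken off, the Spearman correlation over the 18 libraries had a median of 0.53 over the 36 pairs of genes, with a range of 0.11 to 0.88. The 8 pairs with *Prkca* had a median of 0.23, and the other 28 a median of 0.58. *Pcp2* and *Calb2* followed the mean of the other members most closely, with rho of 0.91 and 0.88, while *Prkca* had a rho of 0.26. Part of this rested on the 2 high eyes: without mice 2 and 6, over 14 libraries, the median of the 36 pairs was 0.29 (range -0.33 to 0.82). *Pcp2*, *Calb2* and *Grm6* still followed the others, with rho of 0.85, 0.84 and 0.78, and *Nefl*, *Slc32a1* and *Gad1* were at 0.58, 0.50 and 0.50, whereas *Thy1*, *Lhx1* and *Prkca* were at 0.30, 0.14 and -0.10. These are descriptions over libraries that share their mice in pairs, and the part of shared depth and cell content in them was not tested.

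The Best1-Nrf2 eyes of mice 2 and 6 together held 81.9% of the summed CPM of *Grm6*, 83.7% of *Pcp2*, 69.2% of *Calb2*, 68.6% of *Gad1*, 65.2% of *Nefl* and 30.8% of *Prkca*, where 2 of 18 equal libraries would hold 11.1%. They were singled out as the highest for these genes, so a share above 11.1% follows from that choice. Between these eyes, mouse 6 exceeded mouse 2 by 19-fold for *Pcp2*, 15.3-fold for *Thy1*, 4.51-fold for *Grm6* and 3.67-fold for *Calb2*, but by 1.85-fold for *Nefl*, 1.57-fold for *Prkca*, 1.33-fold for *Slc32a1* and 1.18-fold for *Gad1*. Across libraries the ratio of *Pcp2* to *Nefl* was 3.55 in the Best1-Nrf2 eye of mouse 6 and 0.35 in that of mouse 2, and it ran from 0.087 to 9.84 over all 18 libraries, so the gap between the 2 eyes lay within the spread of the others.

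**Figure D3:**
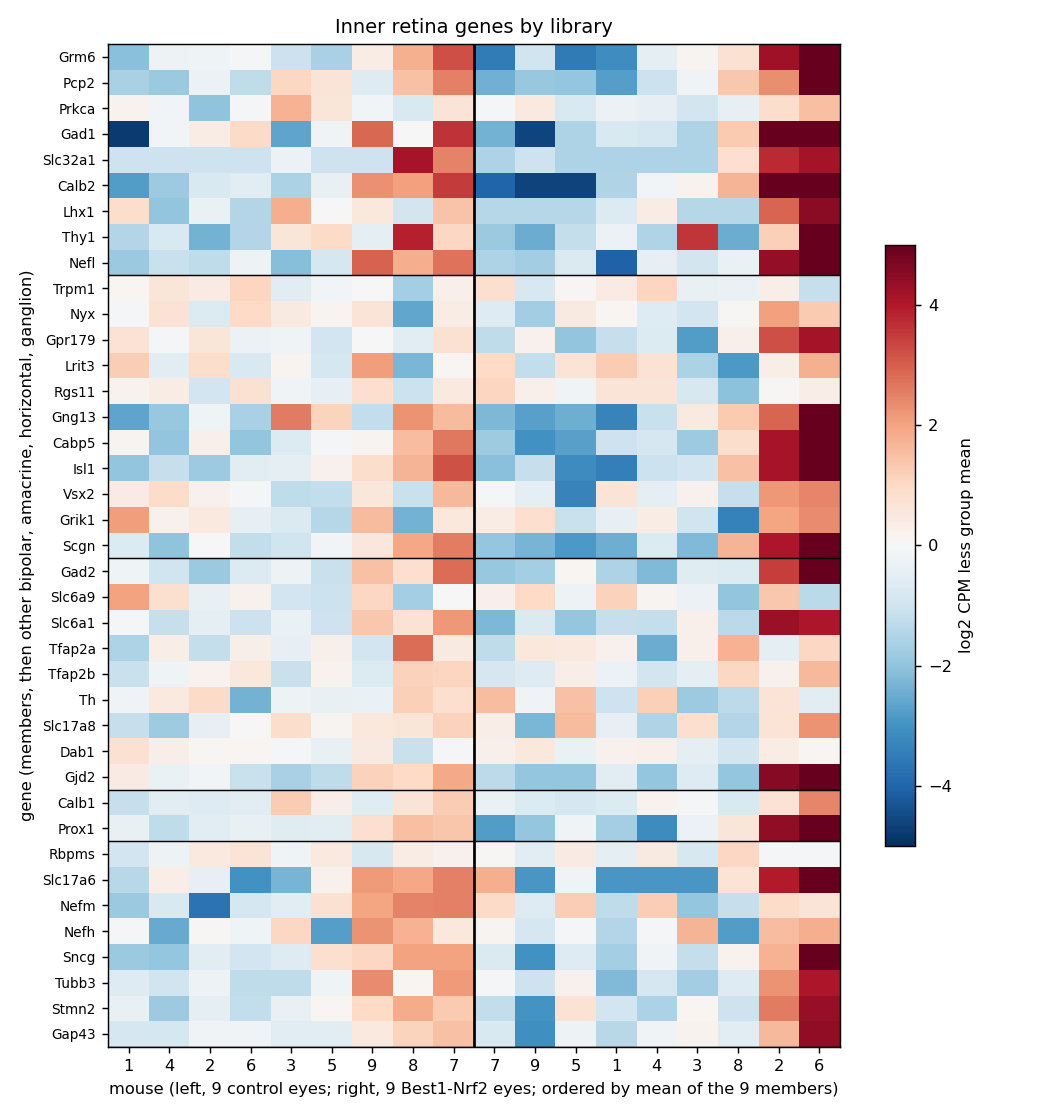
Inner retina genes (rows; the 9 members, then the 30 others tested, by bipolar, amacrine, horizontal and ganglion class) in the 18 libraries (columns, control left and Best1-Nrf2 right, each ordered by the mean of the 9); color is log2 CPM less the gene's group mean, and saturates at the ends of the bar. The red columns are the control eyes of mice 7, 8 and 9 and the Best1-Nrf2 eyes of mice 2 and 6, and rows such as *Trpm1*, *Slc6a9*, *Dab1* and *Rbpms* do not share them.

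Further genes of the inner retina followed the 9 in part. A gene was counted as following the 9 genes when its rho with their mean exceeded 0.5. Among genes that passed the count filter, this held for 2 of 2 further horizontal cell genes, 5 of 8 ganglion cell genes, 4 of 9 amacrine genes and 4 of 11 bipolar genes, beside 5.23% of all genes tested. Without mice 2 and 6 it held for 2 of 2, 3 of 8, 1 of 9 and 4 of 11, beside 12.4% of all genes tested. With all 9 mice it also held for 4 of 7 Müller glia genes, 4 of 9 genes of neurons in general and 2 of 9 rod genes, which became 3 of 7, 3 of 9 and 2 of 9 without mice 2 and 6. With all mice it held for 0 of the 10 cone, 12 RPE, 7 peripheral nerve, 6 fibroblast, 6 endothelial, 7 macrophage and 1 T cell genes tested. The summed level of the Müller list, 313 to 715 CPM in control and 365 to 1064 CPM in Best1-Nrf2 eyes, overlapped between groups. *Glul* weighs most in this sum, with medians of 117 and 142 CPM per kilobase of exon in control and Best1-Nrf2 eyes. The sum therefore says little of the others, such as *Gfap* (6.26 and 0.490) and *Kcnj10* (0.437 and 0.0419). Of the 7 Müller genes 0 were called, with a median log2 change of -0.20.

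Where the mean log2 CPM was 2 or more, the genes most like the 9 were *Celf4* (rho 0.90), an RNA-binding protein of neurons, *Stmn3* (0.89), a tubulin-binding stathmin, *Mir124-2hg* (0.87), the host of a neuronal microRNA, and *Snap25* (0.82), a core part of the synaptic vesicle fusion machine. *Cplx2*, *Tagln3*, *Pcsk1n*, *Sncg*, *Slc12a5* and *Camk2n1* followed, with rho of 0.81 to 0.80. All 10 were highest in the Best1-Nrf2 eye of mouse 6, which follows in part from choosing them by their rho with a mean that peaks there. *Snap25* went from 0 CPM in the Best1-Nrf2 eye of mouse 9 to 515 CPM there, with a median of 37.1 CPM in control eyes and of 3.81 CPM in Best1-Nrf2 eyes, and its change of -2.58 was not past the threshold (adjusted p = 0.55).

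Not every gene of these classes followed. *Trpm1*, the channel that mGluR6 controls in ON bipolar cells and which is also known from pigment cells, was at 136 to 924 CPM in control and 184 to 845 CPM in Best1-Nrf2 eyes, with a rho of -0.41, and its change was -0.08 (adjusted p = 0.96). *Rgs11*, which speeds the same cascade, had a rho of -0.20 and a change of -0.13 (adjusted p = 0.90), whereas *Gng13*, a G protein subunit of bipolar cells, had a rho of 0.89 and a change of -2.39 (adjusted p = 0.43). *Slc6a9*, *Dab1* and *Rbpms*, named here after their values were seen, had rho of -0.36, -0.26 and 0.07. Of the horizontal cell genes, *Prox1* and *Calb1* followed the 9 with rho of 0.74 each, and their changes were -1.25 and -0.08 (adjusted p = 0.74 and 0.98).

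Of the 40 further inner retina genes, 30 were tested and 2 were called, both higher with Best1-Nrf2, where 3.12% of all genes tested were called higher. *Nefm*, the medium neurofilament subunit, was at 0.111 to 12.1 CPM with a median of 1.35 CPM in control and 14.6 to 132 CPM with a median of 86.6 CPM in Best1-Nrf2 eyes. *Th*, the enzyme that sets the rate of catecholamine synthesis and marks dopaminergic amacrine cells, was at 0 to 0.570 CPM with a median of 0.186 CPM in control and 1.43 to 15.1 CPM with a median of 4.63 CPM in Best1-Nrf2 eyes. For both genes the groups did not overlap and all 9 mice were higher. These 2 were taken from the 30 for being called, and the share of all genes with such a split is not given here. The changes were 4.66 for *Nefm* (SE 0.84, adjusted p = 0.0064) and 4.58 for *Th* (SE 0.60, adjusted p = 0.00074). *Th* had 0 to 17 counts in control libraries and 37 to 555 in Best1-Nrf2 libraries, so it passed the count filter through the group in which it is high, and its fold is over a level near 0 and depends on the prior count. With the mean of the rod and cone genes as a covariate both calls were lost (adjusted p = 0.15 for *Nefm* and 0.13 for *Th*). The changes themselves were larger in that fit, at 5.91 and 5.73, and calls over all genes fell from 806 to 34. Neither followed the 9 genes, with rho of 0.35 and -0.27. A pair of bipolar genes was near the threshold on the lower side, *Lrit3* (-2.57, adjusted p = 0.059) and *Grik1* (-1.73, adjusted p = 0.063), and the calls added by DESeq2, limma voom and the fit with no count filter were all lower. Without mice 2 and 6 *Nefm* and *Th* stayed called, and 4 bipolar genes were called lower, where 1.47% of all genes were called lower: *Gng13* (-3.40, adjusted p = 0.0057), *Scgn* (-3.34, adjusted p = 0.027), *Cabp5* (-3.25, adjusted p = 0.017) and *Grik1* (-2.24, adjusted p = 0.0032). With all 9 mice the rho with the mean of the 9 genes was 0.89, 0.82 and 0.75 for *Gng13*, *Scgn* and *Cabp5* and 0.10 for *Grik1*; since these mice were chosen for their inner retina levels, the added calls support no direction. Without mouse 6 alone 5 were called, 3 of them lower.

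Neurofilaments are polymers of light, medium and heavy subunits, which ganglion cell axons carry together. The change of *Nefm* exceeded that of *Nefl* within the mouse by 5.22 ± 2.43 on the log2 scale (SD, n = 9), by 1.19 to 8.02, and in 9 of 9 mice; without mice 2 and 6 it was 5.95 ± 2.08 (SD, n = 7). The pair was chosen after its values had been seen, so this is a description with no test. *Nefh*, the heavy subunit, also named after its values were seen, was higher in 6 of 9 Best1-Nrf2 eyes, with a change of 1.47 (interval -0.31 to 3.25, adjusted p = 0.52).

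**Figure D4:**
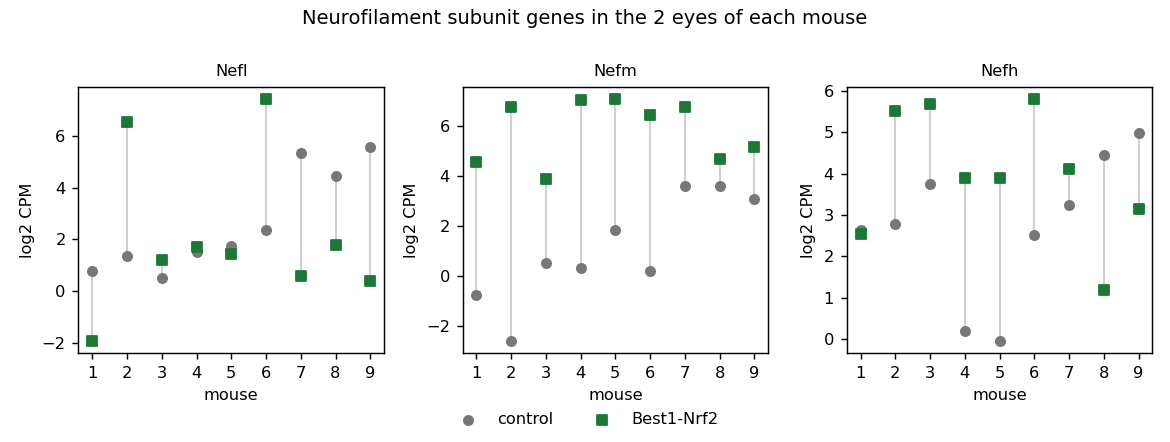
Level of the 3 neurofilament subunit genes in the 2 eyes of each mouse; the x axis is the mouse number and the y axis log2 CPM, gray circles are control and green squares Best1-Nrf2 eyes. *Nefm* is higher in the Best1-Nrf2 eye of all 9 mice, while *Nefl* is higher in 4 and lower in 5.

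Genes of photoreceptors, the outer neurons of the same retina, were compared beside the inner retina genes. Of 10 cone genes 9 were lower with Best1-Nrf2, with a median change of -3.26, and of 9 rod genes tested 4 were lower and 1 was higher, where 1.13% of all genes were called lower and 3.12% higher. Without mice 2 and 6, 10 of 10 cone genes were lower, with a median of -3.50, and of 10 rod genes then tested 4 were lower and 1 was higher. Summed cone levels were 298 to 2258 CPM in control and 54.1 to 534 CPM in Best1-Nrf2 eyes. *Arr3*, cone arrestin, named after its values were seen, was at 36.0 to 379 CPM in control eyes. It was at 1.79 and 20.1 CPM in the Best1-Nrf2 eyes of mice 2 and 6, where the 9 inner retina genes were highest. *Opn1sw*, another cone gene named after its values were seen, did not share this in mouse 6. Its level there was 31.1 CPM in the Best1-Nrf2 and 23.1 CPM in the control eye, beside 7.59 and 566 CPM in mouse 2. The summed cone level of mouse 6 was likewise higher in the Best1-Nrf2 eye, at 534 CPM against 298 CPM. Within mice, the difference in the mean of the 9 genes was 4.07 in mouse 2 and 5.54 in mouse 6, and -4.60, -2.95, -1.88 and -1.52 in mice 7, 9, 5 and 8, with the other 3 mice between -0.22 and 0.16. The cone difference was negative in 8 of 9 mice, between -6.21 and -2.70, and 0.16 in mouse 6.

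When the mean of the 9 genes was added to the model as a covariate, 9 of 10 cone genes were again called lower, with a median change of -3.11, and 843 genes, or 4.45%, were called in all. Of the 30 further inner retina genes tested, this fit called *Nefm* and *Th* higher and *Grik1* (-1.61, adjusted p = 0.024) and *Gjd2* (-2.89, adjusted p = 0.023) lower. With the mean of the rod and cone genes as the covariate the number called was 34, or 0.179%, and 0 of the 6 inner retina genes were among them, though their median change became 3.78. The rod and cone mean is itself lower in the Best1-Nrf2 eyes, so this covariate and the group cannot be told apart fully. The part of retina carried over with the eyecup in the cone difference, as in any of the changes above, was not tested.

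**Figure D5:**
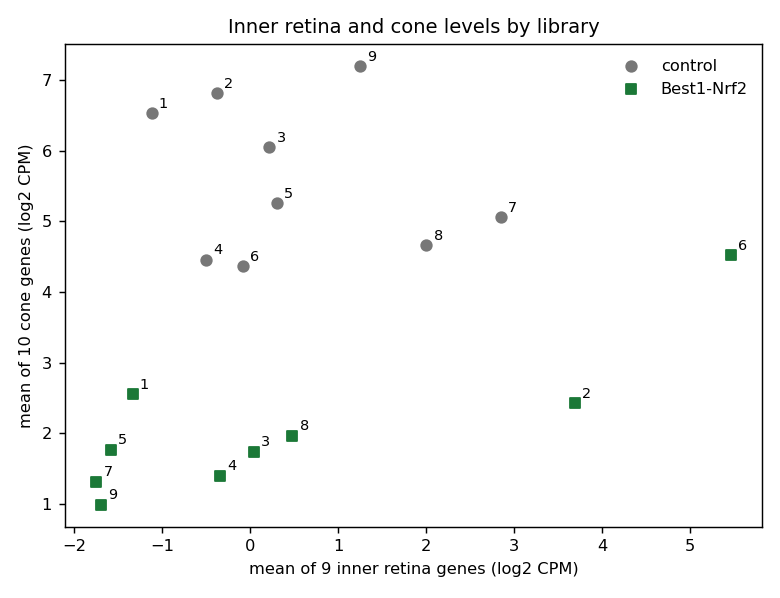
Mean log2 CPM of the 9 inner retina genes (x axis) and of the 10 cone genes (y axis) in each of the 18 libraries, labeled by mouse; gray circles are control and green squares Best1-Nrf2 eyes. Control eyes spread over -1.12 to 2.85 on the x axis and Best1-Nrf2 eyes over -1.75 to 5.46, and among eyes with similar inner retina levels the Best1-Nrf2 points lie lower on the y axis.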

How the data were processed

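Paired eyecup RNA from 9 *rd1* mice at P40 was compared. The table that the authors deposited holds estimated counts per Ensembl gene, unnormalized whole numbers. The methods name STAR, mm10, Ensembl release 91, featureCounts, Salmon, tximport and DESeq2, and the submitters' processing notes name FastQC and Salmon 0.8.1; which counter made the table is not given in the sources used here. The libraries came from separate sequencing runs, and the run of each library is not given. The 9 genes and all lists and tests were chosen with earlier results of these data known. Standard errors and intervals come from the spread between mice.

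Of 47729 genes, 18958 passed filterByExpr in edgeR 4.0.16 (R 4.3.3). TMM scaling, a mouse block taken from the individual number in the labels (median correlation of paired deviations -0.00095, range -0.37 to 0.64), the quasi-likelihood F test and Benjamini-Hochberg adjustment over all genes followed, with a threshold of 0.05. The design fixed for the block is the study's own pairing. Log2 CPM used a prior count of 2. Genes named are the 9; from each list of further bipolar, amacrine, horizontal and ganglion cell genes those past the threshold, or else up to 3 of highest mean CPM; the 10 most like the 9; all others were named after their values were seen. Cone, rod and other lists served as cell markers. Alternatives were no block, RLE and upper-quartile scaling, DESeq2 1.42.0, limma 3.58.1 voom with sample weights, no count filter or 10 counts in every library, covariates, a threshold of 0.1, and leaving out each mouse; leaving out mice 2 and 6 was added after the data were seen. Among 72 same-group pairs no libraries were duplicates (smallest chi-square per degree of freedom, 50.9). Coordinates are from GENCODE M21, GRCm38; promoters are from RefSeq. Scripts were tested on simulated data. Replicates are separate mice, 9 per group; the study's methods describe fewer pairs for this comparison than the labels do, and all labeled pairs were used.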

Additional observations from a re-analysis of the deposited data

Results flagged for a closer look

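In 24 groups of 9 libraries (the 9 genes, their mean, *Nefm* and *Th*, in each group), the library farthest from the rest was compared with its nearest neighbor. *Th* in the control eye of mouse 6 was the one past Dixon's critical value for 9 samples: it was at 0 counts and -4.23 on the log2 CPM scale, the next lowest control eye was at -2.24, and the gap was 0.56 of the group's range. Chance flags about 1 in 20 groups, or 1.2 of 24. The high Best1-Nrf2 eye of mouse 6 did not pass this value for any of the 9 genes on the log2 scale.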

How the results depend on the processing

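The number of the 9 genes called was 0 under all 19 alternatives run for them, which do not include the covariate made from the genes themselves. All genes called, 806 in the main fit, were 1478 with DESeq2, 1426 with limma voom and 34 with the photoreceptor covariate, and 540 to 1046 when 1 mouse was left out. Without the replicate block, the number was 742, and the median change of the 6 members tested was 1.34 instead of -0.42; that median was 3.78 with the photoreceptor covariate and -1.004 to 0.13 when 1 mouse was left out, positive without mouse 7. Without the block the changes of *Calb2* (1.28), *Grm6* (2.50), *Nefl* (1.14) and *Pcp2* (2.83) reversed, and with the photoreceptor covariate they were 4.38, 3.33, 3.53 and 4.41. *Gad1* reversed with limma voom (-1.16) and without mice 2 and 6 (-1.04). Leaving out 1 mouse gave -0.32 to 1.14 for *Gad1*, -1.02 to 0.26 for *Grm6* and -0.99 to 0.0027 for *Pcp2*; the last 2 turned positive without mouse 7. The cause was not tested. Other inner retina genes called, 2 in the main fit and both higher, were 6 with DESeq2 (4 lower: *Lrit3*, *Grik1*, *Gng13* and *Gjd2*), 4 with limma voom and 4 with no count filter (2 lower in each: *Lrit3* and *Grik1*), 0 with the photoreceptor covariate, 6 without mice 2 and 6 (4 lower), and 2 to 5 when 1 mouse was left out. With at least 10 counts required in every library the number was 0, since neither *Nefm* nor *Th* was then tested. With the photoreceptor covariate *Nefm* changed by 5.91 (adjusted p = 0.15) and *Th* by 5.73 (adjusted p = 0.13). The median rho over the 36 pairs of the 9 genes fell from 0.53 to 0.29 without mice 2 and 6. *Slc32a1*, *Lhx1* and *Thy1* were at or below 3 counts in 13, 9 and 8 of 18 libraries and did not pass the count filter, so they were not tested in the main fit.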
